A study of Homo sapiens with 10 samples.

Results

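The control samples of an RNA-seq study of QGP-1 cells were examined to describe which genes these cells transcribe before any knockdown or drug. QGP-1 is an established human cell line from a pancreatic islet cell carcinoma that produces somatostatin, and the labels call it a neuroendocrine tumor cell. The members were taken by their labels and number 4 of the 10 libraries of the series, 2 with the control guide sgNC and 2 with the solvent DMSO. The study used them as the baseline for CRISPRi with sgPIKFYVE-1 and for the drugs apilimod and Torin-1. The labels give the genotype of all 4 as WT. Per the methods, sgNC cells carry a lentiviral vector with the control guide and a nuclease-dead Cas9 joined to the KRAB repressor and were selected with puromycin, whereas DMSO cells are given only the solvent of the drugs. The 2 groups are in separate tables that were normalized separately, so guide, vector, selection, solvent and table cannot be told apart in any difference between them. No test was run across the tables. Each result is a description: the value in each library, the mean ± SD of 2 libraries, and whether the libraries of the 2 groups overlap. No source used here says that the replicates are separate cultures, so the spread between them may be technical.

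Neuroendocrine cells store peptide hormones and amines in dense-core granules. Granins such as chromogranin A help to form these granules, prohormone convertases and carboxypeptidase E cut the precursors inside them, and synaptic proteins carry out their release. Somatostatin, the product of islet delta cells and of scattered gut cells, inhibits the release of other hormones through 5 receptors, SSTR1 to SSTR5, and SSTR2 is the main target of somatostatin analogs and of receptor imaging in neuroendocrine tumors.

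Levels are given in CPM, the reads of a gene per 1 M reads of a library, after TMM scaling. Positions come from the GENCODE 29 annotation of GRCh38. The spacing of low values gave an estimated 10.73 to 12.01 M reads per control library, at which 3 reads correspond to 0.250 to 0.280 CPM. This limit reflects counting error alone. Of 35606 gene IDs, 13637 averaged 1 CPM or more across the 4 control libraries and are called measured. Over these genes, log2(CPM + 1) correlated across genes at Pearson r of 0.992 and 0.993 within the 2 groups and at 0.949 between each sgNC and each DMSO library. Genes are not independent replicates, and the libraries of a group share their table. A gene was called different between the groups when the libraries did not overlap and the nearest ones lay at least 1 apart on the log2(CPM + 1) scale, which 6.75% of the measured genes did. Non-overlap without that distance was found for 76.8% of the measured genes, so alone it does not set a gene apart.

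The label of a neuroendocrine tumor cell was checked against 3 defining markers, and all 3 were detected in every library. CHGA, which encodes chromogranin A, had 409.7 and 453 CPM with sgNC and 417 and 429 CPM with DMSO. The 2 groups overlapped for this gene, at 431 ± 30.5 CPM with sgNC and 423 ± 8.53 CPM with DMSO (SD, n = 2 each). SYP, the gene of the synaptic vesicle protein synaptophysin, had 194 and 213 CPM with sgNC and 153 and 154 CPM with DMSO. INSM1, a transcription factor of neuroendocrine differentiation, had 77.8 and 76.7 CPM with sgNC and 131 and 139 CPM with DMSO. The INSM1 libraries did not overlap and lay 0.75 apart at the nearest on the log2(CPM + 1) scale, with DMSO above sgNC, while the SYP libraries lay 0.33 apart with sgNC above DMSO. All 21 genes of a list of vesicle and exocytosis proteins reached 1 CPM in every library. Among them were SYT13 with 873 and 889.8 CPM with sgNC and 870.4 and 884 CPM with DMSO, RAB3B with 669 and 635 CPM with sgNC and 569 and 569 CPM with DMSO and SNAP25 with 187 and 189 CPM with sgNC and 160.5 and 155 CPM with DMSO.

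To rank genes by level, CPM was divided by length, as CPM per kb of the median transcript length. Values given in CPM alone are not divided by length and do not order different genes. The 25 protein-coding nuclear genes with the highest mean level held 6.91% and 6.99% of the summed CPM in the sgNC libraries and 6.13% and 6.15% in the DMSO libraries. Granule and secretory genes stood among them. SCG2, the gene of the granin secretogranin II (chromosome 2, 223596940 to 223602503, reverse strand), was first with 6151 CPM per kb. CALCA (chromosome 11, 14966668 to 14972354, reverse strand), whose transcripts encode calcitonin or the peptide CGRP, came next after MTRNR2L12 with 5272 CPM per kb. Values per gene do not separate the 2 products of CALCA. CPE, carboxypeptidase E, was in place 13 with 2565 CPM per kb, TPH1, the enzyme that begins serotonin synthesis, in place 19 with 2093 CPM per kb, and VGF, a granin-like precursor of several peptides, in place 23 with 1890.4 CPM per kb. SEC11C, a subunit of the signal peptidase that trims secreted proteins, was in place 12.

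The other leading genes were mostly those of protein synthesis, folding and energy metabolism. These included EEF2 and EEF1A1 (elongation factors), RPL41, RPL10 and RPL4 (ribosomal proteins), EIF4G2 (translation initiation), HSP90AA1, CCT2 and PPIA (folding), GAPDH and LDHA (glycolysis), ACTB (actin), HNRNPA1 and DDX5 (RNA processing), PTMA, RANBP2, CAND1 and RAP1B. MTRNR2L12, in second place, is a near copy of the mitochondrial ribosomal RNA gene, so its value may hold mitochondrial reads and is uncertain. RAP1B, CAND1 and CCT2 lie within 6 Mb of each other on chromosome 12. The mitochondrial genome was counted apart and gave 6.90% to 7.57% of the summed CPM. The order rests on the length used. With the union of a gene's exons, 12 of the 25 stayed among the first 25, and with the median length of coding transcripts, an alternative chosen after seeing the data, 16 stayed. The 9 genes among the first 25 by every measure, CPM without division by length included, were SCG2, MTRNR2L12, CALCA, EEF1A1, GAPDH, ACTB, SEC11C, PTMA and VGF.

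**Figure D1:**
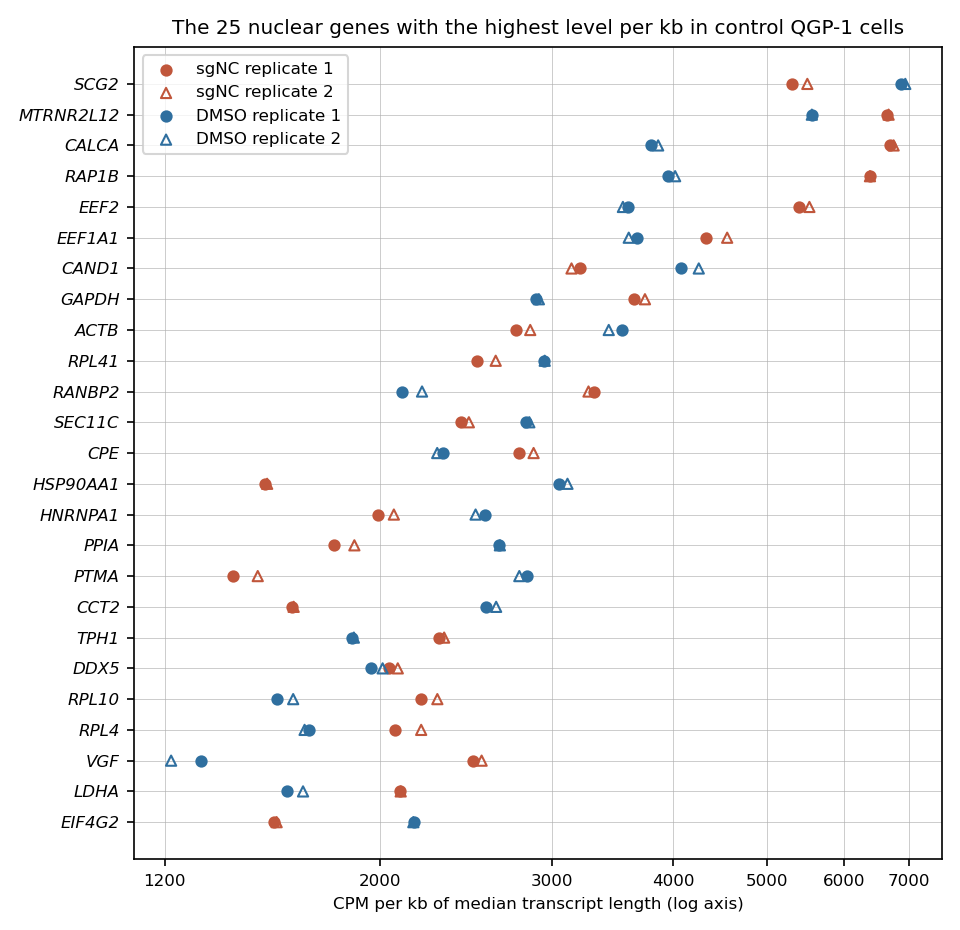
Level of the 25 nuclear protein-coding genes with the highest mean CPM per kb of median transcript length (log axis) in each control library, with circles for replicate 1 and triangles for replicate 2. SCG2 lies highest in both DMSO libraries and CALCA in both sgNC libraries, and none of the 25 genes was called different between the groups.

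Genes of granule content and peptide processing were present in breadth: 16 of 18 listed genes reached 1 CPM in all 4 libraries. VGF had 6175 and 6297 CPM with sgNC and 3239.7 and 3019 CPM with DMSO. CHGB, chromogranin B, had 2477 and 2586 CPM with sgNC and 1574 and 1524 CPM with DMSO, and SCG2 had 3126 and 3238 CPM with sgNC and 4043 and 4084 CPM with DMSO. The groups did not overlap for any of the 3, as for 76.8% of all measured genes, but sgNC lay above DMSO for VGF and CHGB and below it for SCG2. Of the convertases, PCSK1 had 594 and 598 CPM with sgNC and 861 and 895 CPM with DMSO, and PCSK2 had 503 and 528 CPM with sgNC and 229 and 236 CPM with DMSO. The 2 convertases thus lay in opposite order between the groups. PAM, which amidates peptides, had 929.9 and 962 CPM with sgNC and 925 and 941 CPM with DMSO, with overlapping groups. Among genes of amine synthesis, TPH1 had 1947 and 1970.5 CPM with sgNC and 1583 and 1591 CPM with DMSO, and DDC, which completes the synthesis of serotonin and dopamine, had 55.3 and 64.2 CPM with sgNC and 129.6 and 123 CPM with DMSO. SLC18A1, the vesicular monoamine transporter of endocrine cells, had 3.62 and 3.70 CPM with sgNC and 9.01 and 8.54 CPM with DMSO, while its neuronal relative SLC18A2 was at or below 0.175 CPM. PTPRN, a granule membrane protein of islet cells, had only 2.04 and 2.01 CPM with sgNC and 2.53 and 1.24 CPM with DMSO. Its relative PTPRN2, of the same list, had 241 and 229 CPM with sgNC and 196 and 185 CPM with DMSO. SLC30A8, the zinc transporter of beta cell granules, was at or below 0.557 CPM.

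Somatostatin was the one islet hormone that reached 1 CPM. SST (chromosome 3, 187668906 to 187670399, reverse strand) had 632 and 652 CPM with sgNC and 235 and 224 CPM with DMSO. Both sgNC libraries lay above both DMSO libraries, at 642 ± 13.9 CPM with sgNC and 229 ± 7.82 CPM with DMSO (SD, n = 2 each), a ratio of means of 2.80. By mean CPM per kb over the 4 libraries, SST was in place 157 among the nuclear protein-coding genes of the tables. INS, GCG and PPY, the genes of insulin, glucagon and pancreatic polypeptide, were listed at 0 in all 4 libraries. IAPP, amylin of beta cells, was at 0.0830 to 0.182 CPM, under the level of 3 reads, and GHRL, ghrelin, was at 0 in both sgNC libraries and at 0.0905 and 0.415 CPM with DMSO.

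The promoter of SST is shown because its cAMP response element is the textbook site of control of this hormone. The 250 bases before the RefSeq start of SST (GRCh38.p14, chr3:187670395-187670644, reverse strand) are given 5′ to 3′ with the element TGACGTCA, which reads the same on both strands, in capitals. It occurred once here and in 1.77% of 27305 promoter windows of this length.
SST: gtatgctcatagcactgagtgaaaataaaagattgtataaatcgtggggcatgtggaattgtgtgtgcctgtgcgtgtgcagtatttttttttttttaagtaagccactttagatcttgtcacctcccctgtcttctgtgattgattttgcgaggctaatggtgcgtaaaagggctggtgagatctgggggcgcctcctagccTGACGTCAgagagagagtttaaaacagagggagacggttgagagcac
A match of these letters is a description of the sequence and not evidence of binding in these cells.

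Of 33 gut and neural peptide genes, 9 reached 1 CPM in all 4 libraries, and 20 were under 3 reads in each of them. CALCA had 5664 and 5713 CPM with sgNC and 3215 and 3271 CPM with DMSO, or 5688 ± 34.5 CPM with sgNC and 3243 ± 39.3 CPM with DMSO (SD, n = 2 each). The CALCA libraries did not overlap and lay 0.79 apart at the nearest. NTS, neurotensin, had 1931 and 1970.2 CPM with sgNC and 1506 and 1595 CPM with DMSO. These were the 2 most abundant peptide genes of the list per kb. GRP, gastrin-releasing peptide, had 39.6 and 41.7 CPM with sgNC and 28.4 and 33.5 CPM with DMSO, UCN3, urocortin 3, had 38.02 and 37.3 CPM with sgNC and 22.9 and 22.7 CPM with DMSO, and GAL, galanin, had 26.4 and 23.9 CPM with sgNC and 41.5 and 38.5 CPM with DMSO. GAL was the member of these that lay higher with DMSO in both libraries. GAST, CCK, GIP and VIP, the genes of gastrin, cholecystokinin, gastric inhibitory polypeptide and vasoactive intestinal peptide, were listed at 0 in all 4 libraries. PYY, peptide YY, was at or below 0.185 CPM.

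Somatostatin receptors were low in comparison with their ligand. SSTR2 (chromosome 17, 73165012 to 73176633, forward strand) had 3.76 and 5.47 CPM with sgNC and 4.26 and 4.35 CPM with DMSO. With 4.62 ± 1.21 CPM with sgNC and 4.31 ± 0.0643 CPM with DMSO (SD, n = 2 each), the groups overlapped. SSTR1 had 0.927 and 0.960 CPM with sgNC and 1.18 and 1.08 CPM with DMSO, and SSTR5 had 0.464 and 0.611 CPM with sgNC and 0.181 and 0.0829 CPM with DMSO. SSTR3 and SSTR4 were listed at 0 in every library. Per kb, SSTR2 was at 1.09, SSTR5 at 0.246 and SSTR1 at 0.241 CPM, against 705 CPM per kb for SST. On that scale SSTR2 was in place 12503 among the same genes. SSTR5 in the DMSO libraries lay under the level of 3 reads, where depth does not allow an order.

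Among 18 other hormone receptors, 5 reached 1 CPM in all 4 libraries. GIPR, the receptor of gastric inhibitory polypeptide, had 72.2 and 71.3 CPM with sgNC and 21.4 and 23.1 CPM with DMSO. The groups did not overlap, with a ratio of means of 3.23 in favor of sgNC. DRD2, the dopamine receptor targeted in some endocrine tumors, had 9.27 and 9.69 CPM with sgNC and 3.89 and 4.48 CPM with DMSO, and VIPR1 had 9.09 and 7.95 CPM with sgNC and 4.71 and 4.64 CPM with DMSO. IGF1R had 174 and 165 CPM with sgNC and 115 and 102 CPM with DMSO, and INSR had 112 and 118 CPM with sgNC and 74.6 and 76.8 CPM with DMSO, with sgNC above DMSO in both libraries for each. GLP1R, GLP2R, GCGR, CCKAR and CCKBR were at 0 or at most 0.185 CPM, under the level of 3 reads.

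**Figure D2:**
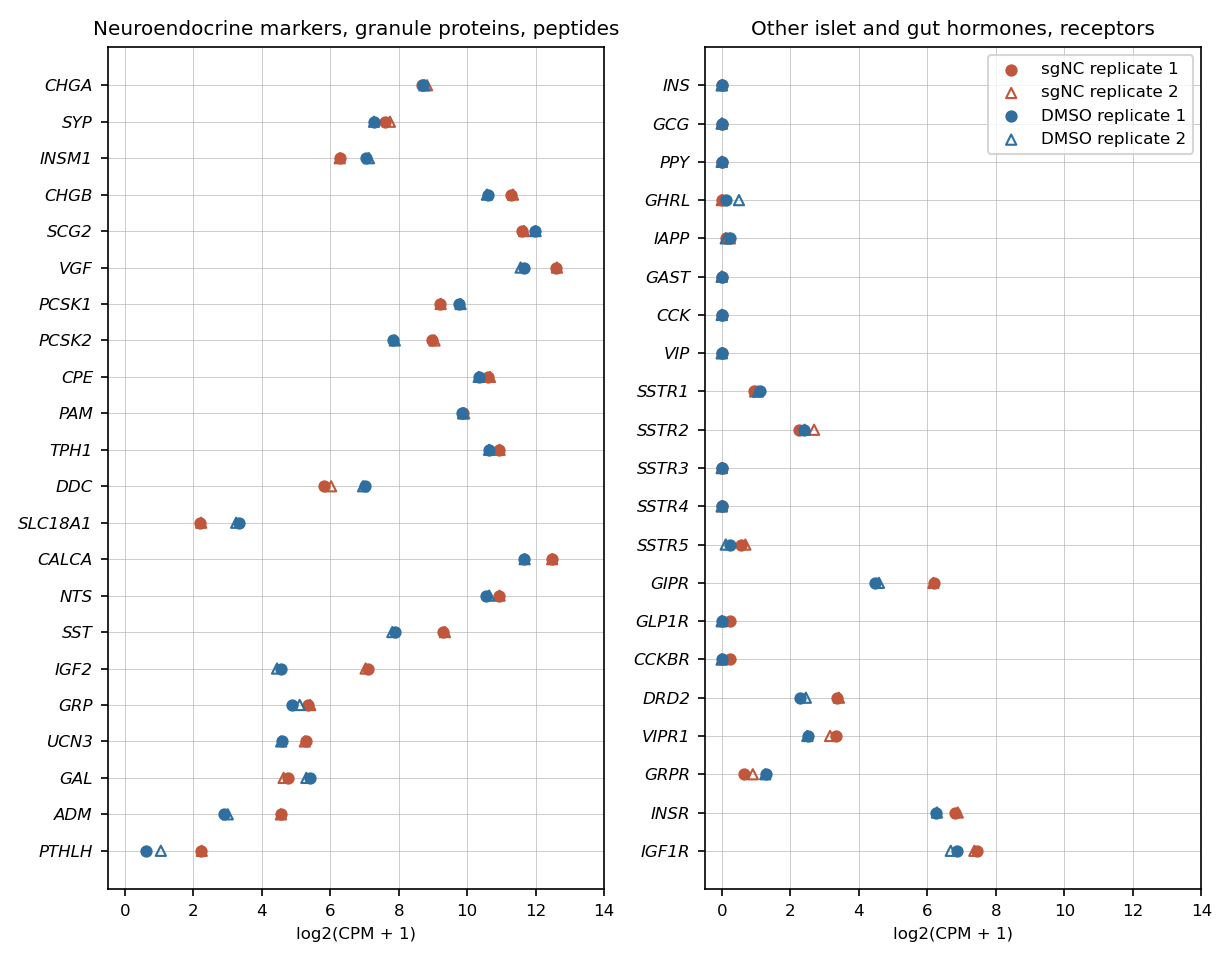
Level on the log2(CPM + 1) scale of neuroendocrine markers, granule genes and expressed peptides (left) and of other hormones and hormone receptors (right) in each control library. Granule genes, CALCA, NTS and SST lie far to the right, whereas INS, GCG, PPY, GAST, CCK, VIP, SSTR3 and SSTR4 lie at 0 in all 4 libraries. Values are not divided by transcript length.

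Transcription factors of the neuroendocrine lineage showed a mixed pattern. SOX4 had 659 and 668 CPM with sgNC and 552 and 539 CPM with DMSO, PROX1 had 301 and 287 CPM with sgNC and 210.1 and 218 CPM with DMSO, and ST18 had 195 and 181 CPM with sgNC and 144 and 145 CPM with DMSO. Each of these 3 factors was thus at 144 CPM or more in all libraries. NKX2-1, known from lung and thyroid, had 91.3 and 97.7 CPM with sgNC and 119.9 and 111 CPM with DMSO. In contrast, NEUROG3, which starts islet cell differentiation, and RFX6, which acts downstream of it, were listed at 0 in all 4 libraries, and NEUROD1 was at or below 0.506 CPM. ISL1, PAX6, MNX1 and NKX2-2 lay between 5.93 and 25.8 CPM. REST, the repressor of neuronal genes, had 7.79 and 9.87 CPM with sgNC and 3.35 and 3.07 CPM with DMSO, and was the factor of this list that was called different, with sgNC above DMSO. MYT1 had 103 and 105 CPM with sgNC and 64.2 and 28.5 CPM with DMSO, with the 2 DMSO replicates over 1 apart on the log2(CPM + 1) scale.

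Of 29 endoderm and pancreas factors, 18 reached 1 CPM in all 4 libraries. ONECUT2, a factor of liver and pancreas development, had 1014 and 985 CPM with sgNC and 964 and 962 CPM with DMSO. The epithelial factor EHF had 257 and 259 CPM with sgNC and 243 and 241 CPM with DMSO. ELF3, of the same family, had 167 and 162 CPM with sgNC and 108 and 92.8 CPM with DMSO. FOXA2, a factor of foregut endoderm, had 124 and 116 CPM with sgNC and 92.01 and 92.6 CPM with DMSO, and SOX2 had 105 and 115 CPM with sgNC and 135 and 144 CPM with DMSO. PDX1, which is needed for the formation of the pancreas and marks beta and delta cells, had only 1.95 and 2.18 CPM with sgNC and 1.54 and 2.41 CPM with DMSO. PTF1A, RBPJL, SOX17 and CDX1 were listed at 0 in all 4 libraries, and HNF4A was at 0.388 to 1.02 CPM. SOX9, a factor of ductal and progenitor cells, had 43.1 and 42.7 CPM with sgNC and 16.7 and 14.9 CPM with DMSO, and was the member of this list called different, higher with sgNC.

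**Figure D3:**
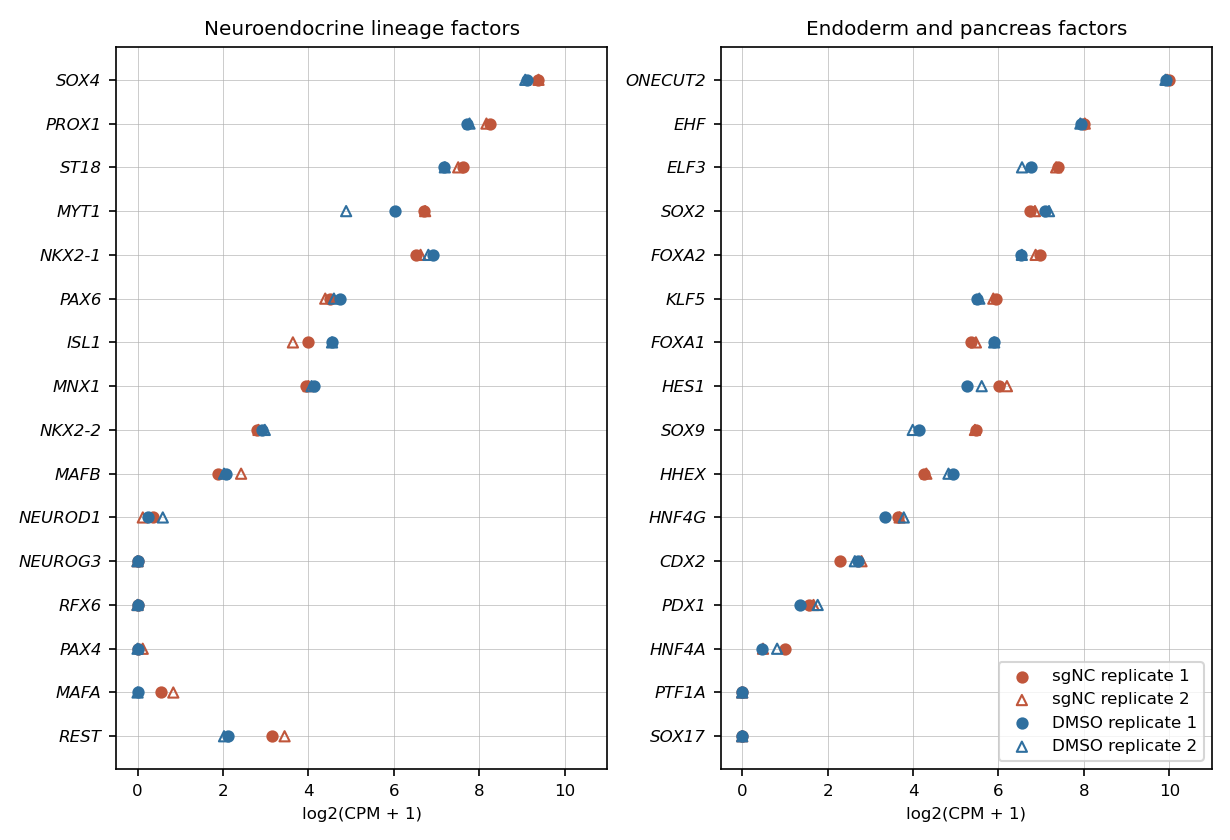
Level on the log2(CPM + 1) scale of transcription factors of the neuroendocrine lineage (left) and of endoderm and pancreas (right) in each control library. SOX4, PROX1, ST18 and ONECUT2 lie at the right in all libraries, and NEUROG3, RFX6, PTF1A and SOX17 lie at 0. Values are not divided by transcript length, and the order per kb differs. By mean CPM per kb, EHF (445) lay above ONECUT2 (119), and ST18 (244) above SOX4 (103).

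QGP-1 cells also carried an epithelial program. Of 14 general epithelial genes, 13 reached 1 CPM in all 4 libraries. EPCAM had 787 and 812 CPM with sgNC and 849 and 846 CPM with DMSO, CDH1, E-cadherin, had 509 and 509 CPM with sgNC and 403 and 385 CPM with DMSO, and KRT18 had 889 and 932 CPM with sgNC and 504 and 516 CPM with DMSO. Gut epithelial genes were expressed in part, with 10 of 21 at 1 CPM or more in all libraries. CEACAM5, which encodes the carcinoembryonic antigen, had 1518 and 1493 CPM with sgNC and 798 and 787 CPM with DMSO, TSPAN8 had 831 and 856 CPM with sgNC and 1070.5 and 1093 CPM with DMSO, and TFF3, a trefoil factor of mucus-secreting cells, had 551 and 556 CPM with sgNC and 165 and 165 CPM with DMSO. MUC2, MUC5AC and FABP1 were listed at 0. The duct keratin KRT7 had 506 and 523 CPM with sgNC and 229 and 230.0 CPM with DMSO, and KRT19 had 26.9 and 27.2 CPM with sgNC and 22.4 and 21.98 CPM with DMSO.

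Markers of immune and endothelial cells were low, and those of stromal and acinar cells were mostly low, with exceptions. None of 10 immune genes reached 1 CPM in all libraries, and their summed level was 2.42 and 3.80 CPM with sgNC and 1.54 and 1.46 CPM with DMSO, with CD3E, CD79A, ITGAM, NKG7 and MS4A1 at 0. The 6 endothelial genes summed to 4.08 and 4.99 CPM with sgNC and 1.36 and 1.91 CPM with DMSO, mostly from PECAM1. VIM, vimentin, was at or below 0.349 CPM, and COL3A1, LUM and THY1 were listed at 0, although 4 of 17 mesenchymal genes, CDH2, ZEB1, ZEB2 and COL1A1, reached 1 CPM in all libraries. CDH2, N-cadherin, had 41.1 and 36.8 CPM with sgNC and 61.8 and 62.9 CPM with DMSO, and ZEB1, a repressor of E-cadherin, had 14.2 and 15.98 CPM with sgNC and 13.5 and 12.5 CPM with DMSO. Of 17 acinar genes, AMY2B alone reached 1 CPM in all libraries. The trypsinogen gene PRSS2, which was not in that list, had 3.75 and 2.36 CPM with sgNC and 99.2 and 88.9 CPM with DMSO. In bulk RNA, fewer cells of a type and less RNA per cell cannot be told apart.

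Of 27 tumor suppressors and oncogenes, 26 reached 1 CPM in all 4 libraries. MEN1, DAXX and ATRX are often mutated in pancreatic neuroendocrine tumors. MEN1 had 46.7 and 49.4 CPM with sgNC and 38.6 and 35.4 CPM with DMSO, with sgNC above DMSO. DAXX had 41.4 and 46.2 CPM with sgNC and 39.1 and 45.7 CPM with DMSO, with overlapping groups, and ATRX had 168 and 171 CPM with sgNC and 201 and 204 CPM with DMSO, with DMSO above sgNC. RB1, the retinoblastoma gene, had 58.3 and 52.3 CPM with sgNC and 74.4 and 77.3 CPM with DMSO. MDM2, a ubiquitin ligase gene, had 533 and 533 CPM with sgNC and 725 and 726 CPM with DMSO, while CDKN1A, which encodes the cyclin kinase inhibitor p21, had 10.01 and 8.47 CPM with sgNC and 5.61 and 6.55 CPM with DMSO. Levels of RNA say nothing about mutation of these genes. CDKN2B, an inhibitor of cyclin D kinases, had 35.1 and 34.8 CPM with sgNC and 12.2 and 11.4 CPM with DMSO, and was the member of the list called different. This was 1 of 26 measured members, against 6.75% of all measured genes.

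The control groups were then compared with each other. Of 13637 measured genes, 454 were called higher in sgNC (3.33%) and 467 higher in DMSO (3.42%), 921 in all (6.75%). Non-overlap without a minimum distance was reached by 76.8% of the genes, and the median log2 difference of all genes was 0.01. Between replicates, 79 genes with sgNC and 75 with DMSO were at least 1 apart. The median size of the log2 difference was 0.31 between the group means, compared with 0.09 between the replicates of either group. By the same rule within the tables, sgPIKFYVE-1 against sgNC gave 2.43% of 13591 genes, apilimod against DMSO 0.857% of 13420 and Torin-1 against DMSO 1.01% of 13572. These comparisons share their controls with the present one and are given only for scale.

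**Figure D4:**
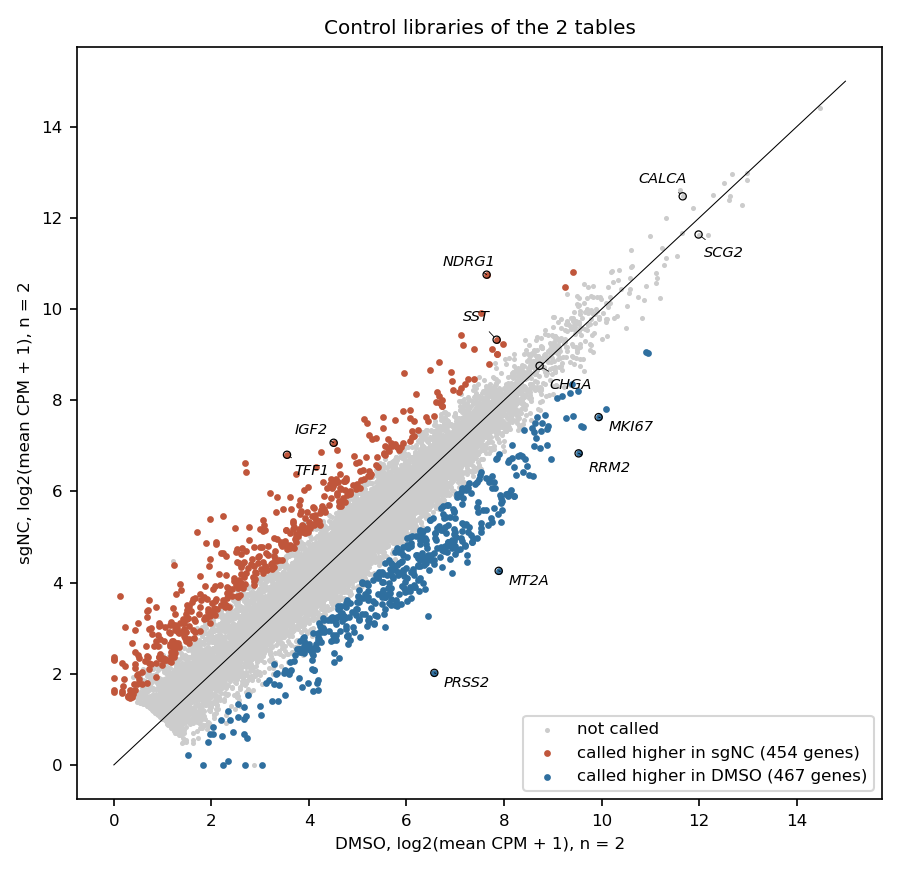
Mean level of 13637 genes in DMSO libraries (horizontal) and sgNC libraries (vertical), both as log2(mean CPM + 1) with n = 2. Colored points are the 454 genes called higher in sgNC and the 467 called higher in DMSO. CHGA and SCG2 lie near the diagonal, NDRG1, SST, IGF2 and TFF1 above it, and MKI67, RRM2, MT2A and PRSS2 below it.

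The protein-coding genes with the 12 widest gaps in favor of sgNC included genes of the cell surface, of secretion and of lactate transport. MALL, a membrane proteolipid, had 80.2 and 90.4 CPM with sgNC and 7.51 and 3.48 CPM with DMSO, SLC16A3, which exports lactate, had 42.9 and 39.03 CPM with sgNC and 2.63 and 3.23 CPM with DMSO, and TFF1, a secreted trefoil peptide, had 107 and 114 CPM with sgNC and 10.2 and 11.2 CPM with DMSO. NDRG1, a gene induced by low oxygen and other stresses, had 1711 and 1744 CPM with sgNC and 194 and 204 CPM with DMSO, or 1728 ± 23.2 CPM with sgNC and 199 ± 6.81 CPM with DMSO (SD, n = 2 each). In each of these the lowest sgNC library exceeded the highest DMSO library by at least 8-fold on the scale of CPM + 1. AC026786.1, a gene known here only by its clone name, had 10.5 and 13.5 CPM with sgNC and 0.168 and 0 CPM with DMSO. As both DMSO libraries were under 3 reads, it was at least 38.5-fold higher with sgNC, taken from the lower sgNC library against the level of 3 reads in a DMSO library. AC026786.1 had 34.8 and 32.1 CPM with sgPIKFYVE-1 and 0 CPM in each apilimod and Torin-1 library. Whether its value holds reads of the vector, which cells of both guides carry, was not tested. Others of the 12 were CITED4 (a transcriptional coactivator), HDAC11 (a histone deacetylase), GSDMA (a gasdermin), PTGS1 (cyclooxygenase 1), CXCR4 (a chemokine receptor) and COL6A1 (a collagen chain), with sgNC means of 19.9 to 42.8 CPM and DMSO means of 1.34 to 3.70 CPM.

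Genes induced by hypoxia were higher in sgNC. Of 21 measured hypoxia targets, 15 were called higher in sgNC and none in DMSO, against 3.33% of all genes called in that direction, and the median log2 difference was 1.28. CA9, carbonic anhydrase 9, had 8.99 and 10.2 CPM with sgNC and 0.272 and 0.995 CPM with DMSO. EGLN3, an oxygen-sensing prolyl hydroxylase, had 82.6 and 81.99 CPM with sgNC and 13.03 and 11.6 CPM with DMSO, and SLC2A3, a glucose transporter, had 117 and 112 CPM with sgNC and 15.2 and 20.6 CPM with DMSO. VEGFA, the angiogenic growth factor, had 139 and 135 CPM with sgNC and 66.2 and 67.01 CPM with DMSO. In each of these, both sgNC libraries lay above both DMSO libraries. The 6 measured members not called were BNIP3, EGLN1, INSIG2, P4HA2, PDK1 and STC2, with log2 differences of 0.21 to 1.01, and ANGPTL4 and CA12 averaged under 1 CPM. Genes of glycolysis pointed the same way by smaller amounts. Of 16 genes, 15 had a higher mean with sgNC, with a median log2 difference of 0.57 against 0.01 for all measured genes. HK2, hexokinase 2, was the one of the 16 that was called, against 3.33% of all measured genes called higher in sgNC. It had 347 and 334 CPM with sgNC and 124 and 119 CPM with DMSO. PGK1 had 1244 and 1348 CPM with sgNC and 603 and 645 CPM with DMSO, and GAPDH had 4709.7 and 4836 CPM with sgNC and 3733 and 3762 CPM with DMSO.

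Several other secreted or signaling genes were also higher in sgNC. Of 11 gut and neural peptide genes measured, IGF2, ADM and PTHLH were called higher in sgNC, against 3.33% of all measured genes. The other 8 were not called, and 2 of these had a lower mean log2 level with sgNC. IGF2, insulin-like growth factor 2, had 136 and 130.0 CPM with sgNC and 22.6 and 20.8 CPM with DMSO, ADM, adrenomedullin, had 22.6 and 22.6 CPM with sgNC and 6.43 and 7.05 CPM with DMSO, and PTHLH, parathyroid hormone-like hormone, had 3.71 and 3.75 CPM with sgNC and 0.543 and 1.08 CPM with DMSO. Of 20 immediate early genes measured, 4 were called higher in sgNC, against 3.33% of all measured genes, and none in DMSO. They were DUSP6 with 352 and 351 CPM with sgNC and 167 and 165 CPM with DMSO, DUSP5 with 44.7 and 48.8 CPM with sgNC and 13.6 and 13.02 CPM with DMSO, JUNB with 118 and 126 CPM with sgNC and 50.8 and 45.9 CPM with DMSO and ZFP36, which encodes the RNA-binding protein tristetraprolin, with 65.5 and 66.97 CPM with sgNC and 20.3 and 19.2 CPM with DMSO. DUSP5 and DUSP6 encode phosphatases of ERK and are induced by its signaling. Of 11 gut epithelial genes measured, TFF1, TFF3, AGR2 and MUC13 were called higher in sgNC, against the same 3.33% of all measured genes, with AGR2, a protein disulfide isomerase of mucus cells, at 143 and 157 CPM with sgNC and 38.2 and 35.1 CPM with DMSO. Among genes of matrix and adhesion, 3 of 12 measured were called higher in sgNC (3.33% of all measured genes), among them the integrin gene ITGA3, with 65.4 and 65.6 CPM with sgNC and 30.3 and 30.2 CPM with DMSO. KRT7, L1CAM, GDF15, BTG2, NFKB2, HSPB1 and HERPUD1 were called higher in sgNC as well, with log2 differences of 1.11 to 1.93. They come from lists of which most measured members were not called. Called higher in sgNC were 1 of 15 measured targets of p53, 1 of 6 of NF-kB and 1 of 19 stress genes of ATF4. So were 1 of 7 measured ductal genes, 1 of 11 neural surface and enzyme markers and 2 of 14 heat shock and endoplasmic reticulum genes. The share of all measured genes was 3.33%. In the ATF4 list 1 gene was called higher in DMSO.

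The widest gap in favor of DMSO belonged to a pancreatic trypsinogen. PRSS2, trypsinogen 2, had 3.75 and 2.36 CPM with sgNC and 99.2 and 88.9 CPM with DMSO, a gap of 4.24. PRSS1, trypsinogen 1, was at less than 1 read in both sgNC libraries and had 5.65 and 5.34 CPM with DMSO, at least 19.1-fold above the level of 3 reads in an sgNC library. The 2 genes are close paralogs that share reads, so the division between them is uncertain. Of the other acinar genes none was called, and CPA1, CTRB2, PNLIP and CLPS were listed at 0 in all libraries.

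Metallothioneins were higher in DMSO. These small proteins bind zinc and copper and are induced by metals and glucocorticoids. MT2A had 18.2 and 18.1 CPM with sgNC and 242 and 230.5 CPM with DMSO, MT1E had 20.5 and 20.96 CPM with sgNC and 157 and 144 CPM with DMSO, MT1X had 17.5 and 17.6 CPM with sgNC and 123 and 121 CPM with DMSO, and MT1F had 9.92 and 7.25 CPM with sgNC and 89.3 and 81.9 CPM with DMSO. MT1A had 2.60 and 5.06 CPM with sgNC and 12.04 and 11.9 CPM with DMSO. In all 5 the groups lay farther apart than the replicates. The genes lie next to each other on chromosome 16 and are near copies, so reads may be shared among them. SLC30A1, a zinc exporter under the same metal sensor, had 38.5 and 31.9 CPM with sgNC and 81.6 and 87.3 CPM with DMSO, and was also called higher in DMSO, whereas MTF1, the gene of that sensor, had 39.1 and 46.4 CPM with sgNC and 40.1 and 43.3 CPM with DMSO, with overlapping groups. The list was drawn up after values were seen: of its 8 measured genes, 6 were called higher in DMSO, against 3.42% of all measured genes, and none in sgNC.

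The promoters of MT2A and MT1X are shown because metal response elements are the known control sites of this family. Each is the 250 bases before the RefSeq start (GRCh38.p14; MT2A chr16:56608334-56608583 and MT1X chr16:56682220-56682469, both forward strand), 5′ to 3′, with the core of the element, TGCACNC or TGCGCNC on either strand, in capitals.
MT2A: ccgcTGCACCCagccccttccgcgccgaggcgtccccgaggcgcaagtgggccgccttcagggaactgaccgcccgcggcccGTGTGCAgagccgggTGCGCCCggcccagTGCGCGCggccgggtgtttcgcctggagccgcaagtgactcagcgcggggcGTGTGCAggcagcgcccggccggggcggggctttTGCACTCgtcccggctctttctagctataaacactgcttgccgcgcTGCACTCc
MT1X: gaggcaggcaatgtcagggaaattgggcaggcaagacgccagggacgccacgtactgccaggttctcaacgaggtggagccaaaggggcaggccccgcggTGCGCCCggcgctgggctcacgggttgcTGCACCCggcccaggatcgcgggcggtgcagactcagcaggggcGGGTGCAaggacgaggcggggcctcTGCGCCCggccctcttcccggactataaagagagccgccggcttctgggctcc
MT2A held 7 matches and MT1X 4 when overlapping matches were counted once. At least 4 matches were found in 0.2197% of 27305 promoter windows, and at least 1 in 24.7%. Of the 12 genes of the metal list, 6 had a RefSeq promoter entry here, and 5 of these held at least 1 match. Such matches describe sequence and are not evidence of binding in these cells.

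Genes of the cell cycle were higher in DMSO throughout. Of 21 genes of G2 and mitosis, 21 were called higher in DMSO, and of 20 genes of S phase, 19 were, against 3.42% of all genes, with median log2 differences of -2.31 and -1.82 (sgNC minus DMSO). MKI67, the proliferation antigen Ki-67 (chromosome 10, 128096659 to 128126385, reverse strand), had 199 and 195 CPM with sgNC and 993 and 969 CPM with DMSO. This was a ratio of means of 4.98, and by rank of CPM within each library, not divided by length, MKI67 was at the percentile 93.7 with sgNC and 99.5 with DMSO. TOP2A, topoisomerase 2A, had 221 and 223 CPM with sgNC and 1073 and 1113 CPM with DMSO, and PLK1, a mitotic kinase, had 28.01 and 33.2 CPM with sgNC and 176 and 172 CPM with DMSO. RRM2, the regulated subunit of ribonucleotide reductase, had 109.6 and 117 CPM with sgNC and 735 and 741 CPM with DMSO, and PCNA, the clamp of DNA polymerase, had 80.8 and 89.6 CPM with sgNC and 332 and 333 CPM with DMSO. SLBP, which binds histone mRNA, was the S phase member not called, with 34.9 and 32.6 CPM with sgNC and 55.04 and 57.7 CPM with DMSO. NUSAP1, UBE2C, SKA3, PBK and ZWINT, all of mitosis, were also among the 12 widest gaps, with DMSO means 5.72 to 6.47 times the sgNC means.

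Sequence is shown for CCNB2, a mitotic cyclin with a well known cell cycle element, and for CA9, the textbook target of hypoxia-inducible factors. Both are the 250 bases before the RefSeq start (GRCh38.p14; CCNB2 chr15:59104896-59105145 and CA9 chr9:35673678-35673927, both forward strand), 5′ to 3′. Capitals mark TTTGAA or TTCGAA in CCNB2 and ACGTG or GCGTG in CA9, each on either strand.
CCNB2: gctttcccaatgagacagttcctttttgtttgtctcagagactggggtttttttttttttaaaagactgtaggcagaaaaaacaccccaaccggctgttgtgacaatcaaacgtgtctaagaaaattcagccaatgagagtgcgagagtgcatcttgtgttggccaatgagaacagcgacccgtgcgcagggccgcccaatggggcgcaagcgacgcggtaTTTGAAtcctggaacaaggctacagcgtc
CA9: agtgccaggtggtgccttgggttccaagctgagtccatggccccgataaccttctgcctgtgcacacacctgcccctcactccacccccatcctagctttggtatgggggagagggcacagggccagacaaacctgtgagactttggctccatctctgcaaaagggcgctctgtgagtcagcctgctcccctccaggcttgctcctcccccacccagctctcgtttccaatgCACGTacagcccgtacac
Each held 1 match. The cell cycle letters occurred in 9 of 17 promoters of G2 and mitosis genes, in 2 of 16 of S phase genes and in 14.6% of all 27305 windows. The hypoxia letters, which are shorter, occurred in 15 of 19 promoters of hypoxia targets and in 43.1% of all windows. That list was made of known targets, so its share is not independent of how it was chosen. These counts describe sequence and are not evidence of binding or of a cause in these cells. CCNB2 itself had 31.6 and 35.3 CPM with sgNC and 158 and 145 CPM with DMSO.

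Calls in the lists of the lineage are given beside the 6.75% called among all measured genes. Of 16 granule genes measured, PCSK2 was called higher in sgNC and SLC18A1 higher in DMSO, and of 21 vesicle genes none was called in either direction, with a median log2 difference of 0.07. Of 17 neuroendocrine factors and 20 endoderm factors measured, REST and SOX9 were called, both higher in sgNC, which is near that share. None of the 13 general epithelial genes measured was called. Genes of cholesterol synthesis had a median log2 difference of -0.41 over 22 measured members, of which ACAT2, an acetyl-CoA acetyltransferase, was called higher in DMSO with 28.6 and 25.5 CPM with sgNC and 67.1 and 64.9 CPM with DMSO. For fatty acid synthesis the median was 0.00, with 16 genes measured and none called. Among 20 interferon-stimulated genes measured, OAS3 was called higher in DMSO and IRF9 higher in sgNC, near the shares of 3.42% and 3.33% of all measured genes.

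**Figure D5:**
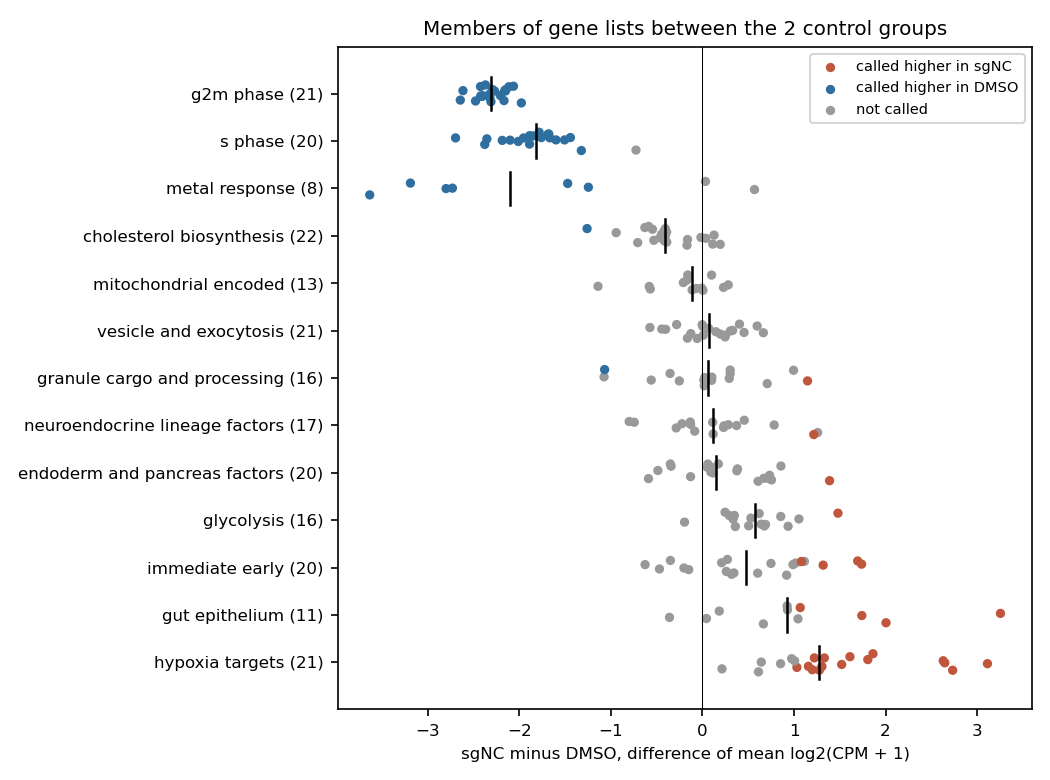
Difference of mean log2(CPM + 1), sgNC minus DMSO, for each measured gene of 13 lists (number measured in parentheses), with black bars for medians and colors for genes called. G2 and mitosis, S phase and metal response genes lie to the left with medians of -2.31, -1.82 and -2.10. Hypoxia targets lie to the right with a median of 1.28, as do gut epithelial genes with 0.93. Lists of granule genes, vesicle genes, and neuroendocrine and endoderm factors lie around 0.

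Values in the libraries with sgPIKFYVE-1, 1 µM apilimod or 100 nM Torin-1 are given beside these differences, since table and condition move together. The labels give 24 h for both drugs, and the paper a shorter time. MKI67 had 285 and 273 CPM with sgPIKFYVE-1, 985 and 935 CPM with apilimod and 811 and 801 CPM with Torin-1. MT2A had 26.7 and 21.1 CPM with sgPIKFYVE-1, 225 and 222 CPM with apilimod and 152 and 139 CPM with Torin-1, and PRSS2 had 3.73 and 5.39, 93.3 and 88.1, and 132 and 119 CPM in the same order. For these 3 genes every library of the knockdown table thus lay below every library of the drug table. SST had 530 and 485 CPM with sgPIKFYVE-1, 199 and 186 CPM with apilimod and 251 and 234 CPM with Torin-1, and likewise did not overlap between the tables, in the opposite direction. NDRG1 had 742 and 723 CPM with sgPIKFYVE-1 and 88.2 to 175 CPM with the drugs. In contrast, IGF2 had 18.2 and 18.1 CPM, TFF1 had 11.1 and 11.4 CPM and GIPR had 22.2 and 17.3 CPM with sgPIKFYVE-1, in the range of the DMSO libraries or near it and far from sgNC. The part of table, culture and sequencing run in these values was not tested.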

How the data were processed

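RNA from 10 libraries of QGP-1 cells, 2 in each of 5 groups, was sequenced, and the 4 control libraries were analysed here. The authors' tools, per the submitters' processing notes, included bcl2fastq 2.20, FastQC, Trimmomatic, edgeR and DESeq2, with the build hg38. Per the methods, transcript estimates were combined per gene and scaled by TMM. The quantifier is not given in the sources used here. Each deposited table thus holds a signal, scaled CPM, and the knockdown and drug tables were scaled apart. Sources differ on RNA selection: the labels name removal of ribosomal RNA, the paper oligo(dT) capture. In the control libraries 80.0% to 81.6% of low values were whole multiples of 1 read within 0.05, which did not allow counts to be restored or modelled.

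Genes were matched by ID without version to GENCODE release 29 (35547 of 35606 IDs). A CPM of at least 1 on average, a pseudocount of 1 and a gap of at least 1 between the nearest libraries on the log2 scale defined calls. The rule was run on simulated libraries of equal depth in which chosen genes were raised in 1 group. No difference between tables was simulated. That run therefore says nothing about calls that come from the tables. Percentiles are ranks by CPM within each library. The genes named are the 25 highest per kb, the members of lists, and per direction the 12 protein-coding genes with the widest gap, leaving out 3 and 4 called genes of the MHC region, 3 histone genes and those that are not protein coding (12 higher in sgNC, 9 higher in DMSO). Some genes that this rule names are not reported here. Members and lists were chosen with earlier results of these data known. Promoter windows are from RefSeq on GRCh38.p14, 1 per symbol. Alternatives were other pseudocounts, filters, scalings and lengths, group means, and each library left out. Python 3.11.15, pandas 2.3.3, numpy 2.4.6 and matplotlib 3.10.9 were used.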

Additional observations from a re-analysis of the deposited data

How the results depend on the processing

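No paired analysis was possible because the comparison of the control groups comes from no test and its groups lie in separate tables. The 921 genes called different became between 667 and 1260 under the 7 alternatives of pseudocount, filter, scaling and rule, and between 1075 and 1119 without each library in turn. A rise without a library is built into the rule, since fewer libraries leave the nearest ones as far apart or farther. With a minimum of 10 CPM the genes higher in sgNC fell from 454 to 268, while those higher in DMSO numbered 399. Quantile normalization kept 839 of the 921 genes, and rescaling each library to the same sum kept 910. Without the genes of the cell cycle, hypoxia and glycolysis lists, an alternative chosen after seeing the data, 865 genes were called. Calls are made gene by gene, so this number only takes the called members of these lists from the 921. Genes at least 1 apart between replicates rose to 237 (sgNC) and 260 (DMSO) with a pseudocount of 0.1 and fell to 12 and 11 with a minimum of 10 CPM. Of the 25 most abundant genes, 12 were kept with the union of exons as length and 16 with the length of coding transcripts. The causes of the other shifts were not tested. For the 24 genes named by gap, no log2 difference changed sign; 21 values moved by more than the spread between replicates, and 241 did not. With n = 2 the spread is known poorly, and levels below 3 reads, such as SSTR5 with DMSO, give no order.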

Other observations

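The genes with high levels per kb were not spread evenly over the chromosomes. In 589 windows of 3 Mb with at least 8 measured protein-coding genes, the 2 windows on chromosome 12 between 66 and 72 Mb had the highest median levels, 8.08 and 7.74 on the log2 scale of CPM per kb, against 4.62 for all measured protein-coding genes. They also ranked first and second by CPM and second and first with the union of exons as length. Of 33 measured genes in this span, 18 (54.5%) were among the top 10% of all measured protein-coding genes. They included MDM2, a ubiquitin ligase gene, with 533 and 533 CPM with sgNC and 725 and 726 CPM with DMSO, the kinase gene DYRK2 with 909 and 892 CPM and 518 and 517 CPM, the signaling adaptor gene FRS2 with 198 and 191 CPM and 201 and 203 CPM, and CNOT2, a subunit of the deadenylase complex, with 649 and 650.3 CPM and 605 and 619 CPM. Other genes of the span were low, such as LYZ, lysozyme, with 6.32 and 4.81 CPM and 2.22 and 1.44 CPM. The span was chosen after its values were seen, and no reason for its levels was tested.

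Some of the genes that differed between replicates lay in the MHC region of chromosome 6. Of the 79 genes at least 1 apart between the sgNC replicates, 10 lay between 28.5 and 33.5 Mb of that chromosome, and of the 75 between the DMSO replicates, 7, whereas 81 of all 13637 genes tested did. HLA-E, which encodes a nonclassical MHC class I molecule, had 8.27 and 14.2 CPM with sgNC and 1.31 and 0 CPM with DMSO, and was named after its values were seen.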
